A study of Mus musculus with 6 samples.

Results

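The axon guidance genes examined here are the semaphorins and their plexin receptors, the Eph receptors and ephrins, the Slits and Robo receptors, and the netrins and repulsive guidance molecules (RGM) with their receptors. They were taken by platform symbol, and 68 of the 19057 genes with a symbol on the array belong to them, with 170 of 45281 probes. The symbol rule also takes in Unc50 and Unc5cl, which share letters with the Unc5 netrin receptors but are not netrin receptors. Neither was detected on any array, so the counts of tested and called genes are the same without them. Ephb2, Ntn1, Robo3 and Sema5b were not analysed here.

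RNA was compared between ID8-M, 3 samples, and parental ID8, 3 samples. ID8 is a line of ovarian epithelial cancer cells of C57BL/6 mouse origin. ID8-M was derived from it: parental cells were injected into the peritoneum of female mice aged 8 weeks, ascites was collected 12 weeks later, and clones were picked in culture and passaged. It is therefore a single derived line, and it shares the background of parental ID8; the medium of both held 4% serum. Nothing in the labels says that the 3 samples of a line were separate cultures, so the spread between them may be technical. All arrays lay on 1 chip, with ID8-M in rows D to F and ID8 in rows A to C, so place on the chip and line cannot be told apart.

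Guidance proteins were first known as cues that steer growing axons, and they also act on the shape, adhesion and movement of epithelial, endothelial and tumour cells. Secreted class 3 semaphorins signal mostly through plexins held together with neuropilins, while membrane semaphorins of other classes bind plexins directly. Ephrins sit on the cell surface and signal to Eph receptor tyrosine kinases on neighbouring cells. Slits are secreted ligands of Robo receptors, and netrins bind Dcc, neogenin and the Unc5 receptors. Most of these receptors act on the actin cytoskeleton through small GTPases.

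Between 16386 and 17186 probes were detected per array (detection p under 0.05). Over the tested probes, the correlation between arrays was 0.993 to 0.995 within a line and 0.967 to 0.97 across the lines. Of 9 epithelial and ovarian surface markers, 7 were detected on every array of both lines. The summed normalized intensities of the 9 were 36933 to 39902 in ID8-M and 22175 to 23641 in ID8, a linear sum in which the brightest probes weigh most. Among the 7, 5 were called higher, Cdh1 was lower by 0.61 (limma adjusted p = 0.00468) and Msln was not called (limma adjusted p = 0.126). The part of these markers in the results below was not tested. None of the 8 macrophage and leukocyte markers measured was detected on any array, and neither was Epcam. Of 7 fibroblast markers, Dcn and Col1a1 were detected on every array and the other 5 on none, with sums of 7086 to 7309 in ID8-M and 4591 to 4940 in ID8. Dcn was higher by 0.61 (limma adjusted p = 0.000874) and Col1a1 was not called (limma adjusted p = 0.776), and their part in the results was not tested. Since whole cultures were measured, fewer cells that express a gene and less RNA per cell cannot be told apart.

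The values given are background-corrected, quantile-normalized log2 intensities. A signal near 5.4, the mean over arrays of the lowest detected signal, is at the limit of detection. A probe was tested with limma when it was detected on all 3 arrays of at least 1 line, and a gene was called at a Benjamini-Hochberg adjusted p under 0.05 over all tested probes. Each gene stands by its brightest tested probe. Intensities of different probes are not compared with each other.

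Of the 68 guidance genes, 37 were tested, and 17 of these were called, 9 higher and 8 lower in ID8-M. Over all 8933 tested genes, 30.8% were called, 15.4% higher and 15.3% lower, against 45.9% of the tested guidance genes. Among genes detected on all 6 arrays, 11 of 26 guidance genes were called, 5 higher and 6 lower, against 28.8% of all such genes. The 3 ID8-M arrays lay wholly above or below the 3 ID8 arrays for 22 of the 37, 12 above and 10 below, while 48.4% of all tested genes showed such a gap. The median difference was 0.02 over the tested guidance genes and −0.03 over all tested genes, and the median size of the difference was 0.34 and 0.20. The filter admits a gene through 1 line alone, and 11 of the 37 entered in that way, of which 6 had no detected array in the other line by the probe that stands for the gene, so these shares describe the tested genes and not all 68.

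By role, 4 of 22 tested ligand genes were higher and 5 lower, and 5 of 15 tested receptor genes were higher and 3 lower. Called in either direction were 40.9% of these ligand genes and 53.3% of the receptor genes, against 30.8% of all tested genes. The filter admitted 6 of the 22 ligand genes and 5 of the 15 receptor genes through 1 line alone, so these shares rest in part on it. Among the called genes, Sema3b, Efna1, Efnb3, Slit2, Epha7 and Robo4 entered in that way. The higher ligands were Sema3b, Efna1, Efnb3 and Ntn3, and the lower ones Sema3a, Sema3f, Sema5a, Efnb1 and Slit2. Among receptors, Plxnd1, Plxnb3, Plxnb2, Plxna2 and Robo4 were higher, and Epha2, Epha7 and Unc5b were lower. Both directions occurred within the semaphorins, with 4 of 13 tested genes called, and within the ephrins, with 3 of 5. The 4 called plexins, of 5 tested, were all higher, and the 2 called Eph receptors, of 6 tested, were both lower. The shares called were 30.8% for semaphorins and 33.3% for Eph receptors, near that of all tested genes. The 4 Eph receptors not called ran from −0.21 for Ephb6 to 0.49 for Ephb4. The Plxnb2, Epha2 and Efnb1 calls were lost with the chromosome median removed, as described below. The Plxna2 call was lost in 5 of 13 other settings and the Sema3f call in 3 of 13. Slit2 and Efnb3 were tested in 12 other settings, and their calls were lost in 3 and 1 of them.

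**Figure D1:**
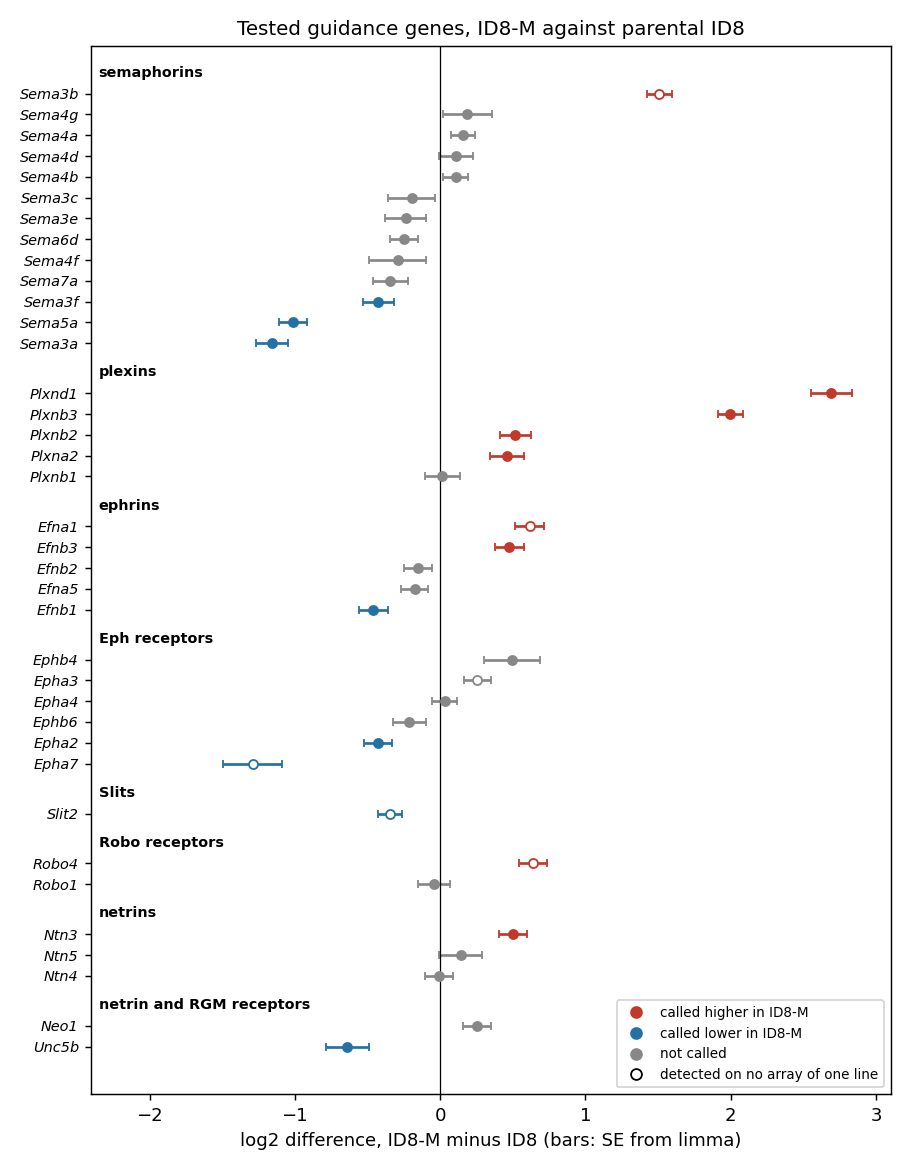
Log2 difference, ID8-M minus ID8, for the 37 tested guidance genes, grouped by family; bars are standard errors from limma with 3 arrays per line, and open circles mark genes detected on no array of 1 line, whose plotted difference is no measured fold. Plxnd1 and Plxnb3 lie farthest to the right, at 2.69 and 2.00, and Epha7, Sema3a and Sema5a farthest to the left.

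The largest differences among the guidance genes were those of 2 plexins. Plxnd1 encodes plexin-D1, a receptor of Sema3e that needs no neuropilin to bind it and is best known in blood vessels. Its log2 intensity was 8.54, 8.59 and 8.34 on the ID8-M arrays, against 5.49, 5.92 and 5.99 on the ID8 arrays. The groups were far apart, and the ID8 arrays lay close to the limit of detection. The difference was 2.69 ± 0.14 (SE, limma adjusted p = 4.82e-06), and 50 of the 8933 tested genes had a larger rise. In scanner units before any correction, the same probe read 506, 497 and 423 in ID8-M, against 167, 185 and 176 in ID8. A second tested probe of Plxnd1 was higher by 1.83 (limma adjusted p = 4.16e-05) and was detected on 1 of the ID8 arrays.

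Plxnb3 encodes plexin-B3, a receptor of Sema5a. Its log2 intensity was 7.64, 7.64 and 7.60 on the ID8-M arrays, against 5.51, 5.76 and 5.62 on the ID8 arrays. Every ID8-M array was above every ID8 array, and the spread within ID8-M was 0.03 (SD, n = 3). The difference was 2.00 ± 0.09 (limma adjusted p = 1.81e-06), with 96 tested genes showing a larger rise. Scanner readings were 331, 313 and 298 in ID8-M, against 168, 178 and 163 in ID8. Plxnb3 has 2 probes, and the other one was detected on no array, with a difference of −0.02. In the authors' normalized table, which has no background correction, the differences were 0.91 for Plxnb3 and 1.46 for Plxnd1.

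The other plexins differed by less. Plxnb2, a receptor of class 4 semaphorins that is common in epithelia, had 11.62, 11.54 and 11.54 in ID8-M, against 11.10, 10.84 and 11.21 in ID8, a difference of 0.52 ± 0.11 (limma adjusted p = 0.00822). Plxna2, which pairs with neuropilins and also binds class 6 semaphorins, had 8.01, 7.86 and 7.79 in ID8-M, against 7.28, 7.35 and 7.66 in ID8. Its difference of 0.46 ± 0.12 (limma adjusted p = 0.0223) was no longer called when ID8-M 1, ID8-M 2, ID8 1 or ID8 2 was left out, with an adjusted p of up to 0.0716, or with no detection filter (limma adjusted p = 0.0556). Without background correction it was 0.29. Plxna2 has 3 probes, of which 1 was tested, and the others were detected on no array, with differences of −0.06 and −0.003. For Plxnb1, a receptor of Sema4d, the difference was 0.02 ± 0.12 (limma adjusted p = 0.937, not called). Plxna1, Plxna3 and Plxna4 were not detected on any array, and Plxnc1, the receptor of Sema7a, was detected on 2 ID8 arrays and no ID8-M array and was not tested.

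The stretches from 250 bases before to 50 bases after an annotated start of Plxnd1, Plxnb3 and Sema5a are shown because these are the plexins that differed most and the ligand of one of them, which moved the other way. They are RefSeq sequences (GRCm38.p6), read along each gene's strand, and capitals mark GGGCGG on either strand.

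Plxnd1, chr6:115994956-115995255, minus strand: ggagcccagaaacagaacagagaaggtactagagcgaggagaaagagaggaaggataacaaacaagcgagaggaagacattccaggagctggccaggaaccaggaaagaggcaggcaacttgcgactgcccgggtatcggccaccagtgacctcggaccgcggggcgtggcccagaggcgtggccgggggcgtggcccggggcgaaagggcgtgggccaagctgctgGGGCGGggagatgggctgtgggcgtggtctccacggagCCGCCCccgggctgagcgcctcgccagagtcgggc

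Plxnb3, chrX:73756853-73757152, plus strand: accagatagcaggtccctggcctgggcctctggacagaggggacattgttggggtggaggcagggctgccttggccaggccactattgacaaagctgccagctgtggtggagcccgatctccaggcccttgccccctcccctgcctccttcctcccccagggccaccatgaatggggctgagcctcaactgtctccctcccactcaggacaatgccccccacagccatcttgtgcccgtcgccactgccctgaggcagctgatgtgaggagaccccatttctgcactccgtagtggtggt

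Sema5a, chr15:32244563-32244862, plus strand: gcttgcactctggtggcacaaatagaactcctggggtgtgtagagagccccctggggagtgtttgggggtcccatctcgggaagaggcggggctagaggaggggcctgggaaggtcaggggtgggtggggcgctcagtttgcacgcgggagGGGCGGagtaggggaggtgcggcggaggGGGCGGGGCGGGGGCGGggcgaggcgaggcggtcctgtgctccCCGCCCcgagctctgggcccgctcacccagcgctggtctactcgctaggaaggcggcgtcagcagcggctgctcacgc

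GGGCGG, the GC box, occurred 2 times in the Plxnd1 stretch and 5 times in that of Sema5a, of which 3 overlap or touch each other, and was not found in that of Plxnb3. It was present in 35.7% of the 32851 promoter stretches of the same length. TATAAA, found in 13.6% of them, and CCAAT, found in 37.4%, were in none of the 3 on either strand. The stretches of Plxnd1 and Sema5a held 23 CG pairs each and that of Plxnb3 held 4, where the median over all stretches was 7. At least 23 pairs were held by 21.5% of all stretches, and at least 4 by 68.6%. Plxnd1, which was higher, and Sema5a, which was lower, thus share a CG-rich start with GC boxes, and Plxnb3, which was higher, does not. Any part of these features in the differences was not tested.

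Class 3 semaphorins changed in both directions. Sema3a, a secreted repellent that acts through neuropilin-1, had 7.37, 7.09 and 7.11 in ID8-M, against 8.41, 8.44 and 8.20 in ID8. All ID8-M arrays were lower, by 1.16 ± 0.11 (limma adjusted p = 0.000145), and 86 tested genes had a larger fall. Its second probe, undetected throughout ID8-M, gave a bound of at least 1.16-fold lower (limma adjusted p = 0.0229). Without background correction the Sema3a difference was −0.75.

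Sema3b, a secreted semaphorin described in human lung cancer as a tumour suppressor, had 6.59, 6.52 and 6.39 in ID8-M, against 5.05, 4.98 and 4.94 in ID8. This probe gave a detected signal in ID8-M alone, and its level there was higher by at least 2.13-fold (limma adjusted p = 7.76e-06). Bounds of this kind divide the brighter line's mean by a floor, which on each array of the dimmer line is the lowest detected signal or, where higher, the signal of the probe itself. The adjusted p printed beside a bound, here and below, tests the difference without that floor and does not test the bound. A bound carries no error of its own and applies to background-corrected values only. A second tested probe of Sema3b, detected on 1 ID8 array, was also higher, by 0.60 (limma adjusted p = 0.0285). Of 4 further probes, not tested, 1 was detected on 1 ID8-M array and 2 ID8 arrays, with a difference of −0.03, and 3 on no array. Without background correction the Sema3b difference was 0.52.

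Sema3f, the neighbouring tumour suppressor semaphorin in human, which acts through neuropilin-2, had 10.49, 10.52 and 10.23 in ID8-M, against 10.92, 10.70 and 10.90 in ID8. It was lower by both of its tested probes, with differences of −0.43 ± 0.11 (limma adjusted p = 0.0212) and −0.36 (limma adjusted p = 0.0158). The call of the brighter probe was lost when ID8-M 3, ID8 1 or ID8 3 was left out, with an adjusted p of up to 0.0683. The brighter probe of Sema3c gave −0.19 ± 0.16 (limma adjusted p = 0.401), while its other tested probe was called lower by 0.39 (limma adjusted p = 0.0144). Sema3e, the ligand of plexin-D1, differed by −0.24 ± 0.14 (limma adjusted p = 0.248), with a 95% interval of −0.56 to 0.09. Sema3d and Sema3g were not detected on any array.

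Of 8 tested semaphorins of classes 4 to 7, Sema5a alone was called. It is a membrane semaphorin with thrombospondin repeats and a ligand of plexin-B3. Its log2 intensity was 9.75, 9.62 and 9.71 in ID8-M, against 10.86, 10.57 and 10.68 in ID8. The groups did not overlap, and the difference was −1.01 ± 0.10 (limma adjusted p = 0.00016). Another probe was lower by 0.97 (limma adjusted p = 0.000219), and the remaining tested probe, close to the limit of detection, was not called (−0.20, limma adjusted p = 0.352). In scanner units the brightest probe read 1006, 886 and 901 in ID8-M, against 2066, 1724 and 1711 in ID8.

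The other 7 were not called. Sema7a, a lipid-anchored semaphorin that binds integrins as well as plexin-C1, differed by −0.34 ± 0.12 (limma adjusted p = 0.0664). Its call turned on the setting: it passed with ID8 2 left out (limma adjusted p = 0.0445), and among probes detected at p under 0.01 on all arrays (limma adjusted p = 0.0472). Sema4a, Sema4b, Sema4d, Sema4f, Sema4g and Sema6d had differences between −0.29 for Sema4f and 0.19 for Sema4g. Sema4c, Sema6a, Sema6b and Sema6c were not detected on any array.

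**Figure D2:**
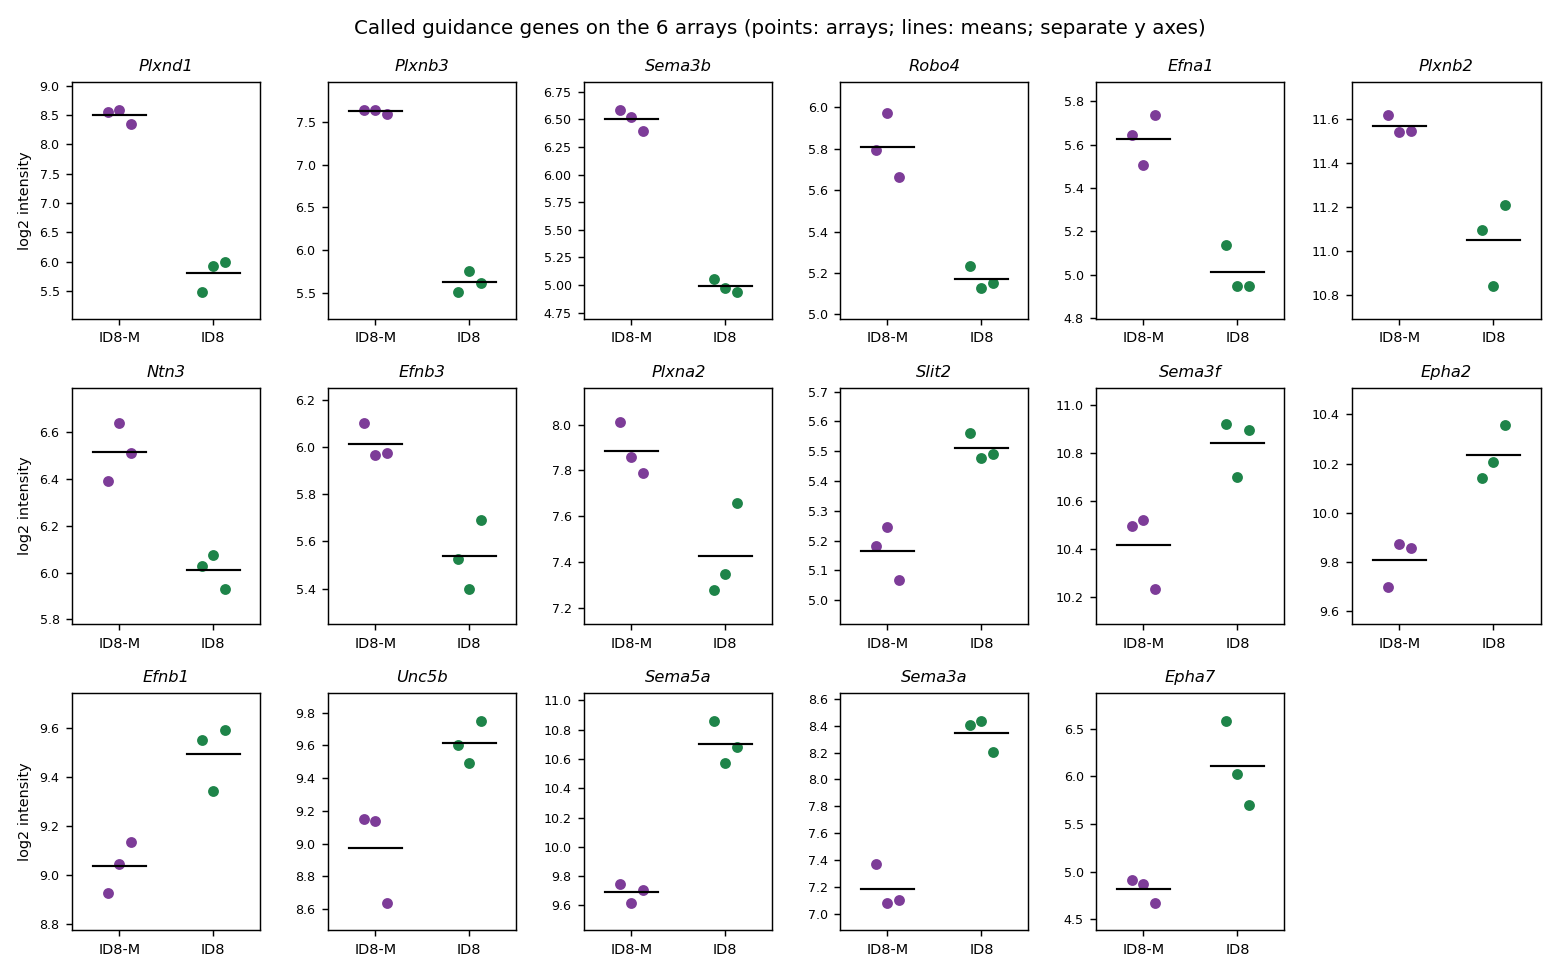
Background-corrected log2 intensity of the 17 called guidance genes on each array, ID8-M on the left and ID8 on the right of each panel; points are arrays, lines are means, and each panel has its own vertical axis. In all 17 panels the 3 ID8-M points lie wholly above or wholly below the 3 ID8 points, which is narrowest for Plxna2.

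The neuropilins, which are co-receptors of class 3 semaphorins and of vascular endothelial growth factors, were read beside them. Nrp1, which binds Sema3a, had 9.44, 9.47 and 9.57 in ID8-M, against 10.89, 11.13 and 11.07 in ID8, and was lower by 1.54 ± 0.09 (limma adjusted p = 1.05e-05). Its other 2 probes fell by 1.47 and 1.37. Nrp2, which binds Sema3f, had 6.98, 6.96 and 7.94 in ID8-M, against 7.42, 7.47 and 7.75 in ID8, and was not called (−0.26 ± 0.25, limma adjusted p = 0.48). Array ID8-M 3 stood apart, and without it the difference was −0.58 and was called (limma adjusted p = 0.016). Of the other tested probes of Nrp2, 1 was called lower by 0.72 (limma adjusted p = 0.0265) and 1 was not called (limma adjusted p = 0.883).

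Read as pairs of ligand and receptor, both parts of the Sema3a and Nrp1 pair were lower in ID8-M. In the pair of Sema5a and Plxnb3 the ligand was lower and the receptor higher. In the pair of Sema3e and Plxnd1 the receptor was higher and the ligand was not called. The arrays measure RNA and do not show whether the proteins met.

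Of 5 tested ephrins, 2 were called higher and 1 lower, and both of the higher ones entered the test through ID8-M alone. Efna1, the main ligand of EphA2, had 5.64, 5.50 and 5.74 in ID8-M, against 5.14, 4.95 and 4.95 in ID8. Its signal was detected in ID8-M alone and was higher there by at least 1.16-fold (limma adjusted p = 0.00246), though the difference without background correction was 0.19. Efnb3, which binds EphB receptors and EphA4, had 6.10, 5.97 and 5.98 in ID8-M, against 5.52, 5.40 and 5.69 in ID8, a difference of 0.48 ± 0.10 (limma adjusted p = 0.00867). These values lay near the limit of detection, Efnb3 was detected on 2 ID8 arrays, and without background correction it was not called (0.15, limma adjusted p = 0.0627).

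Efnb1, another ligand of EphB receptors, had 8.93, 9.05 and 9.13 in ID8-M, against 9.55, 9.34 and 9.59 in ID8, and was lower by 0.46 ± 0.10 (limma adjusted p = 0.0107). Efna5, a ligand of several EphA receptors, differed by −0.18 ± 0.09 (limma adjusted p = 0.187), and its second tested probe by 0.25 (limma adjusted p = 0.245). Efnb2, the ligand of EphB4, differed by −0.15 ± 0.10 (limma adjusted p = 0.277), and by 0.16 with the median of its chromosome removed, as described below. Efna4 was detected on 1 ID8 array, and Efna2 and Efna3 on none.

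Of 6 tested Eph receptors, 2 were lower in ID8-M and none was called higher. Epha2, the EphA receptor best known in epithelial cancers, had 9.70, 9.87 and 9.86 in ID8-M, against 10.14, 10.21 and 10.36 in ID8. It was lower by 0.43 ± 0.09 (limma adjusted p = 0.0114). Epha7 had 4.91, 4.86 and 4.67 in ID8-M, against 6.59, 6.03 and 5.70 in ID8. Its signal was detected in ID8 alone, and in ID8-M it was lower by at least 1.65-fold (limma adjusted p = 0.00231). The ID8 arrays differed among themselves by 0.45 (SD, n = 3), more than for any other called guidance gene, and without background correction the difference was −0.44. Epha7 has 4 probes, of which 1 was tested, and the others were detected on no array, with differences of −0.15 to −0.07.

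Epha3 had 5.60, 5.56 and 5.47 in ID8-M, against 5.16, 5.42 and 5.29 in ID8, by a probe detected on the ID8-M arrays alone, and the difference was not called (limma adjusted p = 0.0757). Another Epha3 probe, not tested, was detected on 2 ID8 arrays and no ID8-M array, with a difference of −0.22. Ephb4, with 6.12, 5.80 and 6.10 in ID8-M, against 5.22, 5.34 and 5.98 in ID8, was not called (0.49 ± 0.19, limma adjusted p = 0.0927). One ID8 array overlapped the ID8-M arrays, and without ID8 3 the difference was 0.73 and was called (limma adjusted p = 0.00663). Epha4 gave 0.03 ± 0.09 and Ephb6, which lacks kinase activity, by −0.21 ± 0.11, and neither was called (limma adjusted p = 0.81 and 0.205). Epha6 and Epha8 were detected on 1 and 3 of the 6 arrays and were not tested. Epha1, Epha5, Epha10, Ephb1 and Ephb3 were not detected on any array.

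Slit2 was the only Slit tested. It had 5.18, 5.25 and 5.07 in ID8-M, against 5.56, 5.48 and 5.49 in ID8, was undetected in ID8-M, and was lower there by at least 1.09-fold (limma adjusted p = 0.0172). All of these signals lay at the limit of detection, and another probe of the gene, not tested, was detected on 2 ID8-M arrays and no ID8 array. The Slit2 call was lost without background correction (limma adjusted p = 0.194) and when ID8-M 3 or ID8 1 was left out, with an adjusted p of up to 0.0579. Slit1 and Slit3 were not detected on any array.

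Robo1, the widespread Slit receptor, had 8.96, 8.91 and 8.61 in ID8-M, against 8.84, 8.92 and 8.83 in ID8. The groups overlapped, and the difference of −0.04 ± 0.11 was not called (limma adjusted p = 0.803), with a 95% interval of −0.29 to 0.21. Robo4, a Robo receptor found mainly in blood vessel endothelium, had 5.80, 5.97 and 5.67 in ID8-M, against 5.24, 5.13 and 5.15 in ID8. It was detected in ID8-M alone, at a level higher by at least 1.32-fold (limma adjusted p = 0.00213), though the difference without background correction was 0.20. Of the 4 probes of Robo4, 1 was tested. Each of the others was detected on at most 1 ID8-M array and on no ID8 array, with differences of 0.10 to 0.14. Robo2 was detected on 2 ID8 arrays and was not tested.

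Because Robo4 and Plxnd1 are known from endothelium, the 6 endothelial markers measured are given beside them. Pecam1 was detected in ID8-M alone (limma adjusted p = 9.65e-05). Cdh5, Emcn and Tie1 were not detected on any array, Kdr was detected on 1 ID8 array and Tek on 1 ID8-M array. The summed normalized linear intensity of the 6 markers ranged from 215 to 226 in ID8-M and from 183 to 191 in ID8. Their part in the Robo4 and Plxnd1 results was not tested. Of 8 neuron and glia markers, Map2 was detected in ID8-M alone, and 7 were not detected on any array, with sums of 246 to 260 in ID8-M and 221 to 228 in ID8.

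Among netrins, Ntn3 had 6.39, 6.64 and 6.51 in ID8-M, against 6.03, 6.08 and 5.93 in ID8, and was higher by 0.50 ± 0.09 (limma adjusted p = 0.00536), or by 0.20 without background correction. For Ntn4, a basement membrane netrin, the difference was −0.01 ± 0.10 (limma adjusted p = 0.971, not called), with a 95% interval of −0.23 to 0.21. Ntn5 gave 0.14 ± 0.15, also not called (limma adjusted p = 0.514).

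Of the netrin receptors, Unc5b had 9.15, 9.14 and 8.64 in ID8-M, against 9.60, 9.49 and 9.75 in ID8. Unc5b encodes a receptor that mediates repulsion by netrin-1 and can signal cell death when no ligand is bound. It was lower in ID8-M by 0.64 ± 0.15 (limma adjusted p = 0.0138), and ID8-M 3 lay below the other ID8-M arrays. Neo1, neogenin, which binds both netrins and RGM proteins, had 10.29, 10.27 and 10.13 in ID8-M, against 9.99, 10.10 and 9.83 in ID8. Its groups did not overlap, but the difference of 0.26 ± 0.10 was not called (limma adjusted p = 0.0852), whereas without background correction it was 0.23 and was called (limma adjusted p = 0.0223). Dcc and Unc5c were detected on some arrays and not tested, as was the RGM ligand Rgmb. Unc5a, Unc5d and Rgma were not detected on any array.

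**Figure D3:**
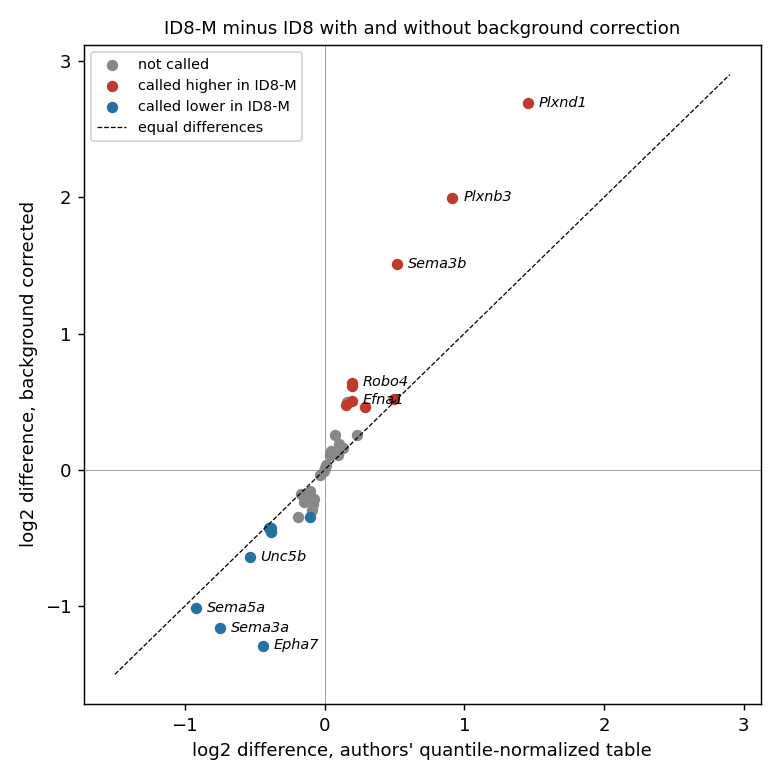
Log2 difference, ID8-M minus ID8, of the 37 tested guidance genes with background correction (vertical axis) against the difference in the authors' normalized table without it (horizontal axis); the dashed line marks equal differences. Plxnd1, Plxnb3, Sema3b and Epha7, dim in 1 line, lie far from the line, with 2.69 against 1.46 for Plxnd1, while Sema5a, bright in both, lies close to it, with −1.01 against −0.92.

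Of the 10 guidance genes with several tested probes, the probes of Plxnd1, Sema3a, Sema3b and Sema3f were called in 1 direction, as were 2 of the 3 for Sema5a. For Sema3c only the dimmer probe was called. No gene had probes called in opposite directions. Between 17 and 65 beads stood behind each array's value of a called gene.

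Other genes of these pathways were read from lists of co-receptors and of intracellular effectors. Of 17 tested co-receptors, partners and processing enzymes, 6 were lower and none was called higher, with a median difference of −0.22. The largest falls were those of Flrt1, whose family binds Unc5 receptors, by 1.95 ± 0.13 (limma adjusted p = 1.53e-05), and of Nrp1. The other 4 differences were −0.75 for Itgb1, an integrin subunit of the Sema7a receptor, −0.65 for Erbb2 and −0.38 for Met, which are kinase partners of plexin-B receptors, and −0.36 for Bmp4. The Met call was lost in 10 of 13 other settings, among them every array left out except ID8-M 1.

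Of 13 tested semaphorin effectors, 3 were higher and 4 lower, with a median difference of 0.03. Dpysl3, a collapsin response mediator of the growth cone, fell by 1.64 ± 0.08 (limma adjusted p = 3.51e-06), and Cfl1, the actin-severing protein cofilin, by 0.49 ± 0.12. Dpysl2, another collapsin response mediator, rose by 0.42 ± 0.09 and Mical2, an actin-oxidising enzyme, by 0.34 ± 0.09. The Mical2 call was lost with no detection filter (limma adjusted p = 0.0546) and when ID8-M 1, ID8-M 2, ID8 1 or ID8 2 was left out (up to 0.0994), and the Cfl1 call when ID8 2 was left out (limma adjusted p = 0.0523). In 6 settings, 4 of them the same left-out arrays, the list held 3 or 4 called genes instead of 7.

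Of 14 tested Eph and ephrin effectors, 5 were higher and 1 lower, with a median of 0.22. Tiam1, an activator of the GTPase Rac1, had the largest difference, 1.14 ± 0.10 (limma adjusted p = 7.47e-05), followed by Pik3r1, a regulatory subunit of PI 3-kinase, with 0.46 ± 0.09. The calls of Src, a kinase, and Nck1, an adaptor, with differences of 0.28 and 0.30, were lost whichever array was left out, with an adjusted p of up to 0.134. Inppl1, a lipid phosphatase that binds EphA2, fell by 0.44 ± 0.08 (limma adjusted p = 0.00492). Of 12 tested Slit, netrin and common effectors, 1 was higher and 3 were lower, with a median of −0.17. Ablim1, an actin-binding protein, rose by 0.91 ± 0.16 (limma adjusted p = 0.00461), and Evl, of the Ena/VASP family, fell by 1.46 ± 0.22 (limma adjusted p = 0.00176). Rock1, a kinase activated by RhoA, fell by 0.41 ± 0.10 (limma adjusted p = 0.0139), a call that was lost with the median of chromosome 18 removed (−0.23, limma adjusted p = 0.13). Without background correction the differences were −1.03 for Flrt1, −0.37 for Erbb2, −0.49 for Itgb1, −0.18 for Met, −0.79 for Dpysl3, 0.71 for Tiam1, 0.33 for Ablim1, −0.55 for Evl and −0.26 for Rock1. Evl was detected on 2 of the 3 ID8-M arrays, and its mean over them, 5.30, lay at the limit of detection. These shares stand beside the 30.8% of all tested genes that were called.

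The tested genes of some chromosomes were shifted as a whole between the lines. The median difference was 0.36 over 380 genes of chromosome 15, −0.31 over 491 of chromosome 8, −0.29 over 272 of chromosome X, −0.19 over 551 of chromosome 4 and −0.19 over 215 of chromosome 18. Plxnb2 lies on chromosome 15, Efnb1 on chromosome X and Epha2 on chromosome 4, each with a difference in the direction of its chromosome. With the chromosome's median removed, the differences were 0.16 for Plxnb2, −0.17 for Efnb1 and −0.24 for Epha2, and none of the 3 was called (limma adjusted p = 0.331, 0.255 and 0.114). The other 14 called guidance genes were still called. Sema5a and Plxnb3 ran against their chromosomes: with the median removed, the difference was −1.38 for Sema5a on chromosome 15 and 2.28 for Plxnb3 on chromosome X. Of the co-receptors on chromosome 8, Nrp1 was still lower by 1.23, and Itgb1 by 0.45 (limma adjusted p = 0.0327).

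**Figure D4:**
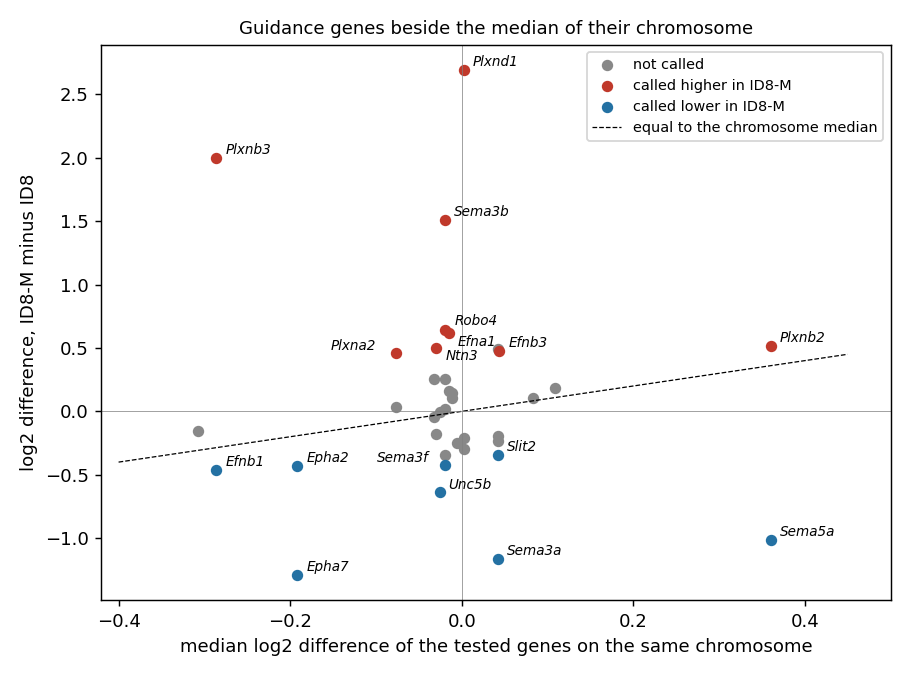
Log2 difference, ID8-M minus ID8, of each tested guidance gene (vertical axis) against the median difference of all tested genes on its chromosome (horizontal axis); the dashed line marks a difference equal to that median. Plxnb2, Efnb1 and Epha2 lie near the line, at 0.52, −0.46 and −0.43, while Sema5a and Plxnb3 lie on the opposite side of 0 from their chromosome's median.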

How the data were processed

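RNA from 3 ID8-M and 3 parental ID8 samples was hybridised to Illumina bead arrays as biotinylated cRNA, per the labels' protocols. The deposited scanner table gives, per the file headers, the mean bead intensity per probe and array, the number of beads, their standard error and a detection p-value. A second deposited table holds intensities normalized by the authors on the linear scale, with medians of 143.36 to 143.41 per array, and it followed plain quantile normalization of the scanner intensities to within 0.109% to 1.65%. No source used here gives any other step of the authors.

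From the scanner intensities, neqc of limma 3.58.1 in R 4.3.3 estimated the background through the detection p-values, added an offset of 16, applied quantile normalization and took log2. Of 45281 probes, 34885 have 1 symbol in the platform annotation, 18 several and 10378 none, and all 68 guidance genes matched a RefSeq gene (GRCm38.p6). The 16221 probes detected on all 3 arrays of a line were fitted with limma (two-sided, 4 residual degrees of freedom before moderation), with Benjamini-Hochberg adjustment over all of them. The fit was tested on simulated data. Members and lists were chosen with earlier results of these data known. Called members, or those detected in 1 line alone, were named with every array's value, others by difference or detection; of other genes, the neuropilins and the 2 largest called rises and falls per list were named, and further list genes were chosen after their values were seen. Alternatives were another normalization, no background correction, other probe filters, averaged probes, the replicate number as a block, chromosome medians removed and each array left out. The number of arrays limits the precision.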

Additional observations from a re-analysis of the deposited data

How the results depend on the processing

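The counts of guidance genes called, 9 higher and 8 lower, stayed between 8 and 10 higher and between 6 and 9 lower when each array was left out in turn, and all tested genes called then numbered between 2044 and 2302, against 2748. Among the 20 guidance genes whose probes had a detection p under 0.01 on all 6 arrays, 3 were higher and 7 lower, a filter that by construction leaves out genes detected in 1 line. It also left out Plxnd1 and Plxnb3, the largest rises, though both were detected at p under 0.05 on all 6 arrays. The other settings gave 8 or 9 higher and 6 to 9 lower. Equal counts did not always hold the same genes. Without background correction 9 were higher, with Efnb3 lost and Neo1 gained. With no detection filter all 68 were fitted and 9 were higher, though Plxna2 was lost, so genes that had failed the filter were among them. No call of a guidance gene reversed in any setting, and Plxnd1, Plxnb3, Sema3a, Sema3b, Sema5a, Epha7, Efna1, Robo4, Ntn3 and Unc5b were called in every setting that tested them. Of these, only Sema3a, Sema5a, Ntn3 and Unc5b were tested with the filter at p under 0.01. With the replicate number as a block, the counts were 9 and 8, and 2330 genes were called in all. The block left 4 semaphorin effectors called instead of 7, and it ended the calls of Mical2 (limma adjusted p = 0.0635), Farp2, Limk1, Met, Nck1 and Src. Same-numbered arrays did not deviate together, with correlations of 0.04, −0.09 and 0.01 for replicates 1 to 3, and not every array correlated best with its own number. Without background correction the differences of Plxnd1, Plxnb3, Sema3b and Epha7, each near the limit of detection in 1 line, were 1.46, 0.91, 0.52 and −0.44, and the cause was not tested. What is close to background in a line limits how well a fold can be sized.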
